A study of Danio rerio with 8 samples.

Results

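The effect of the *tcf21-/-* genotype that epicardial cells (EpiCs) and cardiomyocytes (CMs) have in common was measured as the mean of the genotype difference in EpiCs and the genotype difference in CMs. All 8 of the 8 libraries entered it, 4 from *tcf21-/-* (mutant) and 4 from *tcf21+/+* (wild-type) larvae. It was computed for each of the 16077 genes with a mean normalized count of at least 10, of 21286 genes in the table. The cell type stood in the model as the 4 group means, so that a gene's level in EpiCs relative to CMs did not enter the effect.

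The study looked for factors of the epicardium that CM growth needs, and sorted both cell types from zebrafish larval hearts at 96 h post fertilization (hpf). The *tcf21* mutation was in the whole larva, not in the epicardium alone. There were 4 groups of 2 libraries each, EpiCs from *tcf21+/+* and from *tcf21-/-* larvae and CMs from the same 2 genotypes. All larvae carried the reporters Tg(myl7:mCherry-CAAX) and TgBAC(tcf21:nls-EGFP), and each library came from pooled hearts. EpiCs were the EGFP-positive cells, including those that were also positive for the myocardial reporter, and CMs were positive for the myocardial reporter and negative for EGFP. The *tcf21* allele is a frameshift allele in the first exon, and the transcript is still made. By the methods, *tcf21-/-* larvae were the offspring of heterozygous parents and *tcf21+/+* larvae the offspring of wild-type siblings of those parents, so genotype and parentage cannot be told apart in any value given here. Mutant larvae were also picked for their missing head muscles and for a ventricle that was largely covered by epicardium.

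Tcf21 is a basic helix-loop-helix transcription factor that binds DNA at E-boxes together with ubiquitously expressed partners, and it marks the epicardium of vertebrate hearts. The epicardium is the outer cell layer of the heart, which deposits matrix and secretes growth factors that act on the myocardium beneath it. CMs are not known as a site of strong *tcf21* expression.

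The libraries held 6.44 to 11.4 M estimated reads on genes, fewest in *tcf21+/+* CM replicate 1. The Pearson correlation of the replicates across genes, no independent units, was 0.92 in *tcf21+/+* CMs and 0.939 in the other groups. The summed normalized counts of 14 epicardial markers lay between 42947 and 48786 in EpiCs and between 12536 and 13630 in CMs. Those of 14 cardiomyocyte markers lay between 11725 and 17210 in EpiCs and between 100904 and 115541 in CMs. Of the defining epicardial genes, *wt1a* and *postnb* were at 0 in both *tcf21+/+* CM libraries, while *wt1b* had 44 and 29 there, *tbx18* 17 and 12, *aldh1a2* 71 and 0 and *col1a2* 41 and 203. Both cell types thus carried the markers of their label, with lower levels of those of the other cell type in every library.

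*tcf21* itself (ENSDARG00000036869, chromosome 23, 31554269 to 31555696, danRer11) had normalized counts of 1600 and 1851 in wild-type against 1636 and 1454 in mutant EpiCs. In CMs it had 80 and 28 in wild-type against 5 and 12 in mutant libraries. The genotypes overlapped in EpiCs and were apart in CMs, with the lower values in the mutant. The log2 fold change (log2FC, *tcf21-/-* minus *tcf21+/+*, on the log2(value + 1) scale) over both cell types was −1.31 (SE 0.38, *P*adj = 0.234, limma). It was called only without *tcf21+/+* CM replicate 2 (log2FC −1.68, *P*adj = 0.0283). A transcript that need not fall checks nothing about the genotype labels.

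Over both cell types, 12 genes passed a Benjamini-Hochberg *P*adj under 0.05 and an absolute log2FC of at least 0.59 in limma, which is 0.0746% of the genes tested. There were 5 genes with higher expression in *tcf21-/-* libraries (0.0311%), namely *FQ378016.1*, *mhc1uba*, *bcan*, *fn1a* and *per2*. The 7 genes with lower expression (0.0435%) were *zgc:198329*, *CR388079.3*, *efemp2a*, *id4*, *prx*, *nppa* and *atp6ap1b*. All 12 had the same sign in EpiCs and in CMs. In 11 of the 12 the mutant pair of libraries did not overlap the wild-type pair in either cell type and was on the same side in both, a pattern that 2087 genes tested had (13%). The exception was *nppa*. Since these genes were called on the same values, their agreement in sign and lack of overlap were largely fixed in advance. The comparison with 13% of all genes is therefore no evidence of a shared effect.

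**Figure D1:**
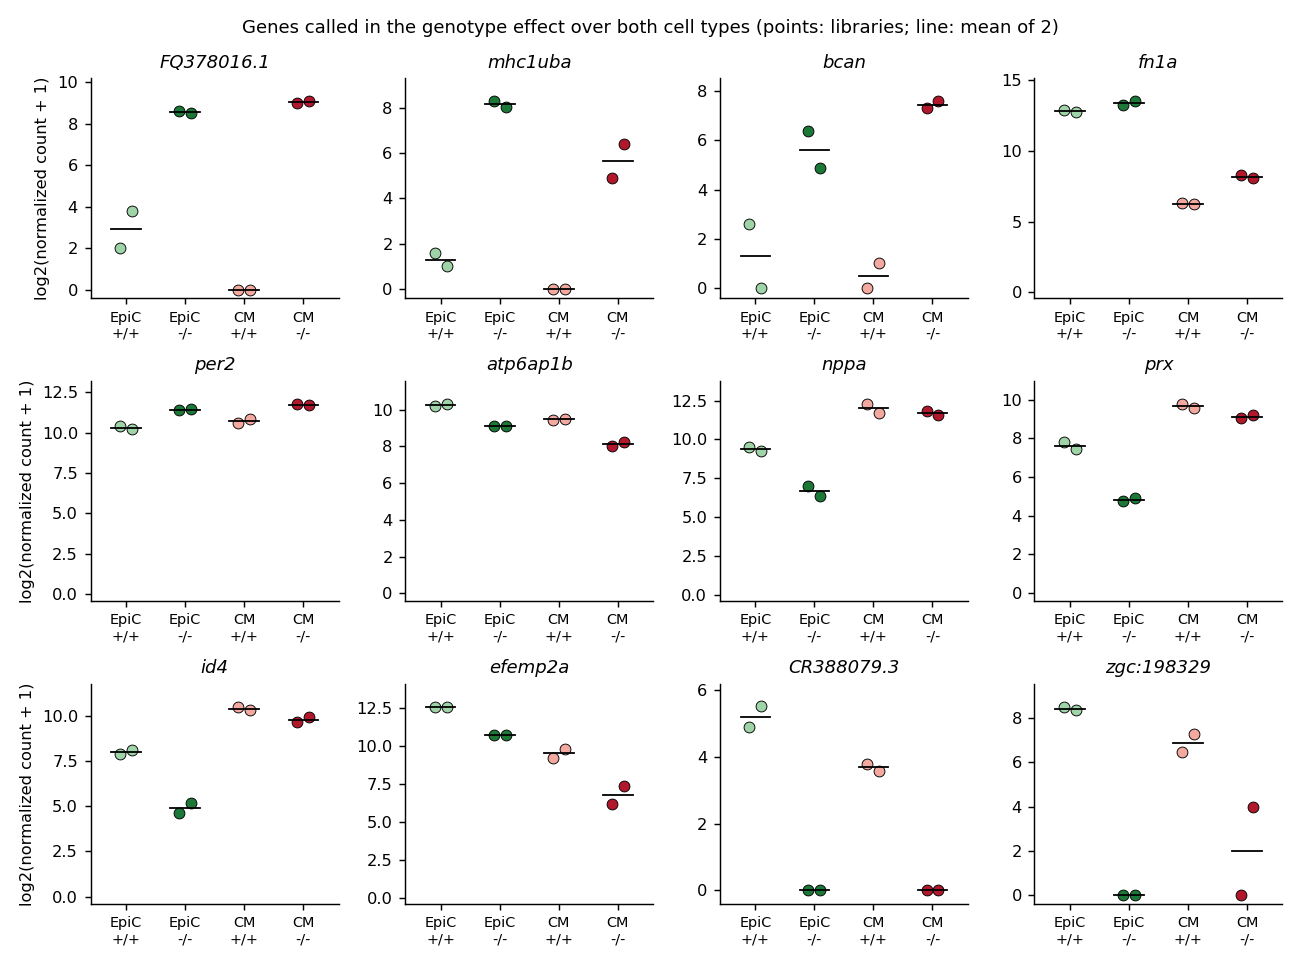
Normalized counts of the 12 called genes on the log2(value + 1) scale (y axis) in the 4 groups (x axis); each point is 1 library and each line the mean of 2 libraries. In every panel but that of nppa the 2 genotypes are apart in both cell types, and FQ378016.1 and mhc1uba are at 0 in both +/+ CM libraries.

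The number of called genes was unstable when a library was left out. It came to 1 gene without either *tcf21+/+* EpiC library and to 0 without either *tcf21-/-* EpiC library. It came to 2 higher and 2 lower without *tcf21-/-* CM replicate 1, and to 1 higher and 2 lower without replicate 2. Without *tcf21+/+* CM replicate 1 it came to 18 higher and 6 lower, and without *tcf21+/+* CM replicate 2 to 773 higher and 287 lower. None of the 12 log2FC values changed sign in any of the alternatives run, up to 22 a gene. Since the 12 genes were called on these same values, their signs could hardly change, and this adds no evidence for the directions. Rescaling every library to the same total gave 4 higher and 2 lower genes in place of 5 and 7.

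*FQ378016.1* (ENSDARG00000108939, chromosome 5, 58487368 to 58512609) is annotated as a phosphodiesterase, an enzyme class that cleaves cyclic nucleotides. It had normalized counts of 3 and 13 in wild-type against 392 and 367 in mutant EpiCs, and 0 and 0 in wild-type against 512 and 547 in mutant CMs. It was thus near or at 0 in every wild-type library and far above that in every mutant library. Its mean was 47.4-fold higher in *tcf21-/-* than in *tcf21+/+* EpiCs and at least 134-fold higher in CMs, taking 3 reads per library as the floor. The log2FC over both cell types was 7.36 (SE 0.50, *P*adj = 0.00333), and it was called in 20 of the 22 alternatives. None of the 8 genes tested within 0.5 Mb of it had an unadjusted *P* under 0.05, beside 14.9% of all genes tested. So few genes cannot be set apart from that share. Most other called genes had such neighbours, but *CR388079.3* had 0 of 5 and *fn1a* had no gene tested within this distance. Around *prx* they were 5 of 16, with 0 in the direction of *prx*, and around *id4* 6 of 21, with 3 in its direction. Around *per2* they were 2 of 12 and around *bcan* 2 of 20.

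*mhc1uba* (ENSDARG00000075963, chromosome 19, 7072854 to 7101100) encodes a major histocompatibility complex (MHC) class I heavy chain, which presents peptides on the cell surface together with beta-2-microglobulin. It had normalized counts of 2 and 1 in wild-type against 316 and 262 in mutant EpiCs. In CMs it had 0 and 0 in wild-type against 29 and 83 in mutant libraries. The wild-type libraries held at most a few reads of it, and it was detected in all mutant libraries. It was at least 14.2-fold higher in *tcf21-/-* CMs, and the log2FC over both cell types was 6.27 (SE 0.55, *P*adj = 0.0147). Class I genes are a family of similar copies, and reads that matched several genes had been dropped, so its level is less certain than that of a single-copy gene.

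The rest of the antigen presentation machinery gave no further call. Of the 21 genes of a list of MHC class I and antigen processing genes found in the table, 18 were tested and *mhc1uba* alone was called. Of those 18 genes 6 had a log2FC above 0 and 12 below 0, and their median was −0.128, beside −0.002 over all genes tested. *b2m*, a gene for beta-2-microglobulin, had 160 and 157 in wild-type against 107 and 70 in mutant EpiCs, and 267 and 211 against 202 and 189 in CMs (log2FC −0.57, SE 0.25, *P*adj = 0.337). *tap2t*, which encodes a peptide transporter subunit, had values of 47 and 51 in wild-type against 202 and 162 in mutant CMs, but overlapped between the genotypes in EpiCs. Within 0.5 Mb of *mhc1uba*, 5 of 34 genes tested had an unadjusted *P* under 0.05, all with higher values in *tcf21-/-*. Of all genes tested, 14.9% had such a *P* in either direction and 8.29% with higher values.

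A zebrafish clock gene was among the 5 higher genes. *per2* (ENSDARG00000034503, chromosome 2, 48309600 to 48375342) encodes a repressor of the circadian feedback loop whose transcription is induced by light in zebrafish cells. It had normalized counts of 1334 and 1201 in wild-type against 2713 and 2787 in mutant EpiCs, and 1573 and 1853 in wild-type against 3462 and 3353 in mutant CMs. All 4 mutant libraries were above all 4 wild-type libraries, across cell types. The ratio of the means was 2.17 in EpiCs and 1.99 in CMs, and the log2FC was 1.06 (SE 0.11, *P*adj = 0.0233).

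Clock genes were followed through a list of 37 that includes *per2*, all of which were tested. A log2FC above 0 was found for 33 of them and below 0 for 4, with a median of 0.261 (0.217 in EpiCs and 0.314 in CMs). Only *per2* was called, while 9 genes (24.3%), *per2* among them, had an unadjusted *P* under 0.05. All 9 had higher values in *tcf21-/-* libraries, beside 8.29% of all genes tested. Since the list was chosen with earlier results of these data known, it is no independent evidence of its direction. *cry1a*, a second light-induced repressor, had 1199 and 1184 against 2076 and 2267 in EpiCs and 2227 and 2239 against 3321 and 3205 in CMs. Its genotypes were apart in both cell types, and it missed the threshold (log2FC 0.71, SE 0.10, *P*adj = 0.0551). *nr1d2a*, a nuclear receptor that represses the activators of the loop, had a log2FC of 0.61 (SE 0.20, *P*adj = 0.268). *nfil3-6*, a bZIP repressor, had 1.22 (SE 0.36, *P*adj = 0.234). The activator genes *arntl1b* and *clocka* were above 0 too, at 1.25 (SE 0.40, *P*adj = 0.257) and 1.27 (SE 0.78, *P*adj = 0.447). Both overlapped between the genotypes in EpiCs, and each had its lowest value in *tcf21+/+* CM replicate 1, at 52 and 5. The period gene *per1b* was among those with the smallest difference, with 3110 and 2914 against 3064 and 3273 in EpiCs and 2603 and 2742 against 2922 and 3202 in CMs (log2FC 0.13, SE 0.10, *P*adj = 0.499). The median of the list lay between 0.132 and 0.39 in all alternatives run. The time of day at which hearts were collected is not given in the sources used here.

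**Figure D2:**
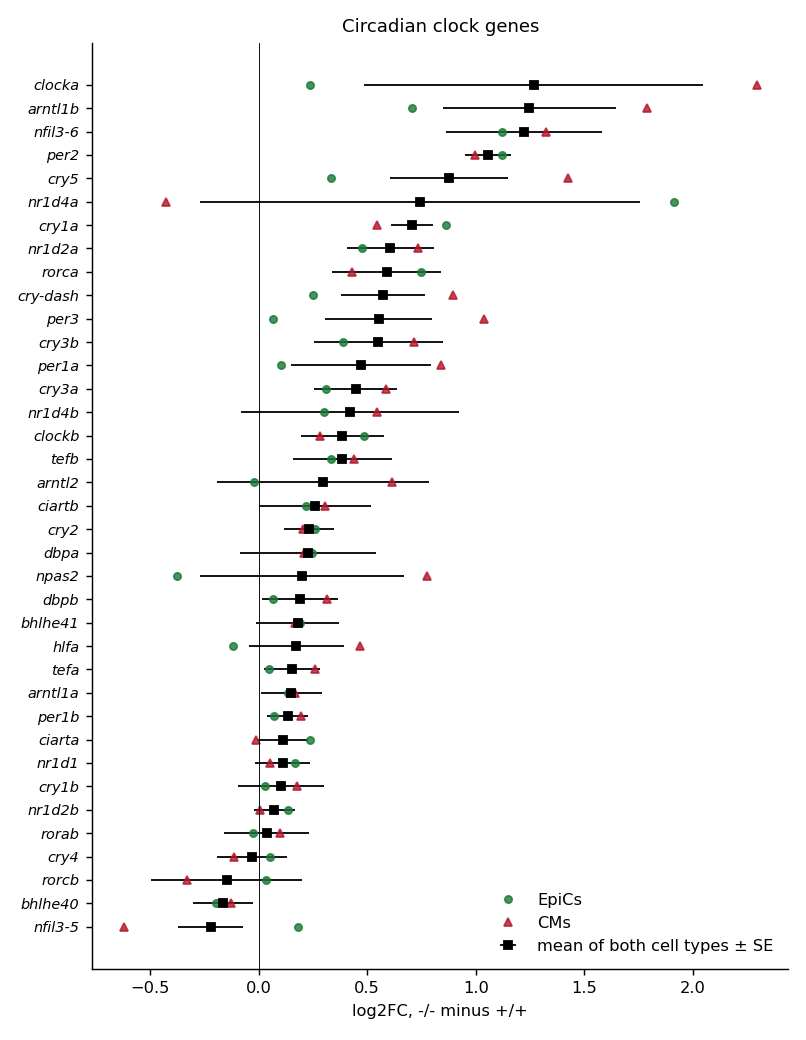
Log2FC (x axis, -/- minus +/+) of the 37 circadian clock genes (y axis) over both cell types (squares, with the SE as bars), in EpiCs (circles) and in CMs (triangles). The squares of 33 genes lie above 0, and those of per2 and cry1a, at 1.06 and 0.71, have the shortest bars among the larger values.

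Among the called genes, 3 encode proteins of the extracellular matrix, *fn1a* and *bcan* with higher and *efemp2a* with lower values in the mutant. *fn1a* (ENSDARG00000019815, chromosome 9, 15362300 to 15424639) encodes a fibronectin, a matrix glycoprotein that binds integrins. It had normalized counts of 7506 and 6871 in wild-type against 9548 and 11702 in mutant EpiCs, and 77 and 76 against 319 and 266 in CMs. Its mean was 1.48-fold higher in *tcf21-/-* EpiCs and 3.82-fold higher in *tcf21-/-* CMs, with a log2FC of 1.24 (SE 0.13, *P*adj = 0.023) over both. The difference between the 2 cell types did not pass the threshold over all genes (difference of log2FC −1.36, SE 0.26, unadjusted *P* = 0.000587, *P*adj = 0.201, limma). The *P*adj of *fn1a* was 0.0235 in CMs alone and 0.398 in EpiCs alone.

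*bcan* (ENSDARG00000099412, chromosome 16, 29310145 to 29334672) encodes brevican, a hyaluronan-binding proteoglycan best known from the brain matrix of mammals. It had 5 and 0 in wild-type against 81 and 28 in mutant EpiCs, and 0 and 1 against 156 and 193 in CMs. Wild-type libraries were again near 0 and all mutant libraries above them, here with the higher level in CMs. The log2FC was 5.63 (SE 0.72, *P*adj = 0.0485), a value that depends on the added constant of 1, and it was called in 8 of the 22 alternatives.

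*efemp2a* (ENSDARG00000094324, chromosome 14, 30669662 to 30704075) encodes a fibulin, and its mammalian counterpart is needed for elastic fibre assembly. It had 5934 and 5836 in wild-type against 1691 and 1660 in mutant EpiCs, and 593 and 896 against 72 and 161 in CMs. The genotypes were far apart in both cell types, at both levels of expression. The mean was 3.51-fold higher in *tcf21+/+* than in *tcf21-/-* EpiCs and 6.39-fold higher in *tcf21+/+* CMs. The log2FC was −2.28 (SE 0.25, *P*adj = 0.023), and between −2.57 and −1.99 in the alternatives. Within 0.5 Mb, 6 of 28 genes tested had an unadjusted *P* under 0.05, of which 3 had lower values in *tcf21-/-*, beside 14.9% and 6.62% of all genes. One of these 3, *zdhhc2*, a palmitoyltransferase gene, had 314 and 542 against 22 and 25 in EpiCs and 75 and 30 against 8 and 11 in CMs (log2FC −3.15, SE 0.45, *P*adj = 0.0551). Another, the serine protease gene *prss23*, had 3205 and 3544 against 1167 and 1015 in EpiCs and 1490 and 1895 against 1474 and 1409 in CMs (log2FC −0.93, SE 0.12, *P*adj = 0.0521).

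Of 38 collagen genes tested, 24 had a log2FC above 0 and none was called, with a median of 0.246. Of 64 genes with the Gene Ontology term extracellular matrix, 35 had a log2FC above 0 and 29 below 0, and only *bcan* was called, with a median of 0.08. *fn1a* and *efemp2a* do not carry this term in the deposited annotation, in which 8201 of the 21286 genes have any term. The shares of this list leave them out. The genotypes were apart in both cell types for 2.63% of the collagen genes and 4.69% of the matrix genes, beside 13% of all genes.

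Among the genes of transcriptional regulators, *id4* was called. *id4* (ENSDARG00000045131, chromosome 16, 9977858 to 9980402) encodes a helix-loop-helix protein without a DNA-binding region, which binds the partners of basic helix-loop-helix factors and keeps them off DNA. It had normalized counts of 234 and 282 in wild-type against 24 and 35 in mutant EpiCs, and 1452 and 1283 against 808 and 979 in CMs. Both cell types had lower values in the mutant, with a ratio of wild-type to mutant means of 8.75 in EpiCs and 1.53 in CMs. The log2FC was −1.86 over both cell types (SE 0.20, *P*adj = 0.023), −3.10 in EpiCs and −0.62 in CMs. The difference between the cell types was −2.49 (SE 0.40), with an unadjusted *P* of 0.000206 and a *P*adj of 0.158 over all genes in limma. In CMs alone the *P*adj of *id4* was 0.428, so its value over both cell types came mostly from EpiCs. The 11 tested genes that encode basic helix-loop-helix factors close to Tcf21 or their partners, such as *tcf12*, *tcf3a* and *twist1b*, had no call and none had an unadjusted *P* under 0.05 (median log2FC 0.265). *tcf12*, for instance, had 3399 and 3078 against 3658 and 4067 in EpiCs, and 1114 and 1596 against 1792 and 1377 in CMs (log2FC 0.25, SE 0.15, *P*adj = 0.44).

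A similar shape, with most of the difference in EpiCs, was found for *prx* and *nppa*. *prx* (ENSDARG00000017246, chromosome 18, 46211210 to 46241856) encodes periaxin, a scaffold protein known from myelinating Schwann cells of mammals. It had 224 and 174 in wild-type against 26 and 29 in mutant EpiCs, and 878 and 764 against 526 and 590 in CMs. The genotypes were apart in both, with a log2FC of −2.80 in EpiCs, −0.56 in CMs and −1.68 over both (SE 0.21, *P*adj = 0.0485).

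*nppa* (ENSDARG00000052960, chromosome 8, 48613040 to 48617664) encodes the atrial natriuretic peptide, a hormone of the myocardium. It had 740 and 618 in wild-type against 127 and 80 in mutant EpiCs. In CMs it had 4939 and 3376 in wild-type against 3573 and 3065 in mutant libraries, where the genotypes overlapped. Its log2FC over both cell types, −1.52 (SE 0.19, *P*adj = 0.0485), therefore came mostly from EpiCs (−2.73, against −0.30 in CMs), although the difference between them had a *P*adj of 0.158. *nppa* is itself one of the 14 cardiomyocyte markers. Of these, 6, with *nppa* and *myh6* among them, were lower in both *tcf21-/-* than in both *tcf21+/+* EpiC libraries, beside 21.5% of the genes tested. The other markers overlapped between the genotypes in EpiCs. *myh6*, the atrial myosin heavy chain gene, had 540 and 229 against 88 and 130 in EpiCs and 10406 and 11547 against 11363 and 10116 in CMs. The atrial connexin gene *gja5b*, not one of the 14 markers, had 49 and 26 against 1 and 1 in EpiCs and 2009 and 2619 against 2526 and 1891 in CMs. Both *myh6* and *gja5b* were picked after their values were seen. The summed level of the 14 markers, in contrast, overlapped between the genotypes in EpiCs, at 17210 and 11725 against 13994 and 12727. In bulk libraries fewer cells of a type and less RNA per cell cannot be told apart, and the part of myocardial RNA in the EpiC values of *id4*, *prx* and *nppa* was not tested.

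The 2 genes with the largest falls are poorly known. *zgc:198329* (ENSDARG00000076981, chromosome 16, 11558868 to 11569729), annotated as a membrane protein, had 365 and 326 in wild-type against 0 and 0 in mutant EpiCs. In CMs it had 87 and 154 in wild-type against 0 and 15 in mutant libraries. It was detected in all 4 wild-type libraries and in 1 of the 4 mutant libraries. It was at least 141-fold lower in *tcf21-/-* EpiCs, and its mean was 16.1-fold higher in *tcf21+/+* than in *tcf21-/-* CMs. The log2FC was −6.65 (SE 0.83, *P*adj = 0.0485).

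*CR388079.3* (ENSDARG00000114502, chromosome 22, 27599775 to 27622854) carries no protein or ontology annotation in the table. It had 29 and 45 in *tcf21+/+* EpiCs, 13 and 11 in *tcf21+/+* CMs and 0 in all 4 *tcf21-/-* libraries. Its expression was thus found in wild-type libraries only, at a low level. It was at least 15.1-fold lower in *tcf21-/-* EpiCs and at least 3.78-fold lower in *tcf21-/-* CMs. The log2FC was −4.46 (SE 0.57, *P*adj = 0.0485). With *FQ378016.1*, *mhc1uba*, *bcan* and *zgc:198329*, it makes up 5 called genes with normalized counts of at most 15 in all 4 libraries of 1 genotype. Each of the 5 passed the limit on the mean only through the libraries of the other genotype, *CR388079.3* at a mean of 12.25. Their number is therefore partly set by the filter.

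The last of the called genes, *atp6ap1b* (ENSDARG00000037153, chromosome 23, 26079467 to 26094178), encodes an accessory subunit of the vacuolar proton pump. It had normalized counts of 1171 and 1265 in wild-type against 559 and 563 in mutant EpiCs, and 692 and 730 against 264 and 298 in CMs. The genotypes were apart in both cell types by a like factor. The ratio of wild-type to mutant means was 2.17 in EpiCs and 2.53 in CMs, and the log2FC was −1.23 (SE 0.13, *P*adj = 0.023). The gene starts at −5.475 Mb relative to *tcf21* on the same chromosome. Mutant larvae, from heterozygous parents, had the mutant allele on both copies of this chromosome. The allele and the sequence linked to it cannot be told apart for genes of this region.

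Other genes on chromosome 23 with large values were read by their distance from *tcf21*. Besides *tcf21*, 12 of 45 genes tested within 1 Mb had an unadjusted *P* under 0.05 (26.7%), 12 of 103 at 1 to 5 Mb (11.7%), 26 of 123 at 5 to 10 Mb (21.1%) and 55 of 346 further away (15.9%). On the other chromosomes 2291 of 15459 genes had such a value (14.8%). The share did not fall steadily with distance. The 50 genes of this kind within 10 Mb became 34 without *tcf21-/-* EpiC replicate 2 and 111 without *tcf21+/+* CM replicate 2.

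Some other genes of the region are named here after their values were seen. *ada*, the adenosine deaminase gene next to *atp6ap1b*, had 528 and 599 in wild-type against 1551 and 1544 in mutant EpiCs, and 99 and 88 against 163 and 179 in CMs (log2FC 1.16, SE 0.17, *P*adj = 0.0551). The genotypes were apart in both cell types, in the direction opposite to *atp6ap1b*. *rca2.2*, 46.2 kb from *atp6ap1b* start to start, had 2 and 7 against 46 and 40 in EpiCs and 8 and 7 against 52 and 55 in CMs (log2FC 2.92, SE 0.52, *P*adj = 0.0907). *noc2l*, a nucleolar protein gene, had 1087 and 1254 against 772 and 560 in EpiCs and 1696 and 1266 against 568 and 499 in CMs (log2FC −1.14, SE 0.16, *P*adj = 0.0551). *aldh8a1*, an aldehyde dehydrogenase gene 0.198 Mb from *tcf21*, had 0 and 0 in wild-type against 39 and 56 in mutant CMs, but overlapped between the genotypes in EpiCs (3 and 7 against 3 and 14). None of these 4 genes was called.

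**Figure D3:**
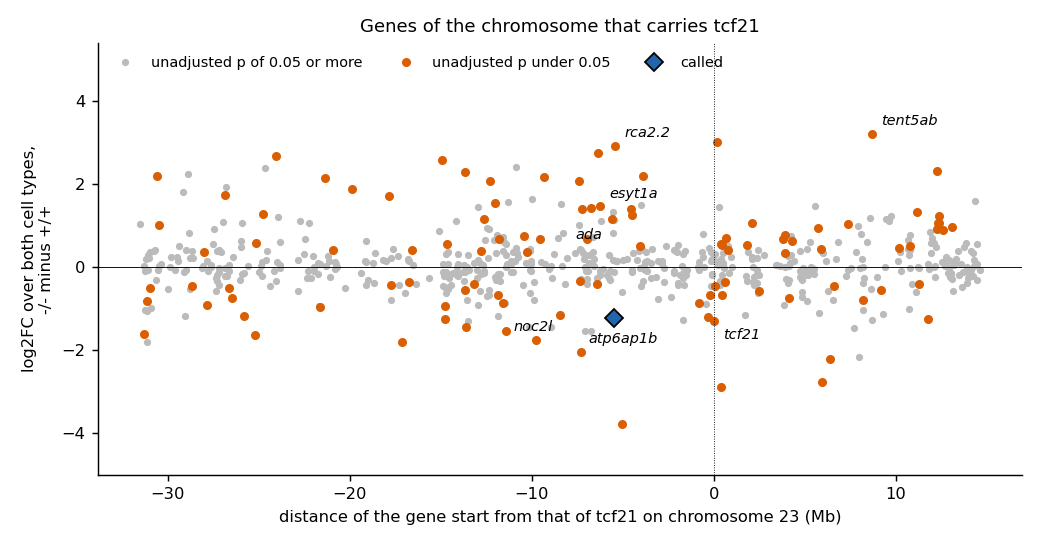
Log2FC over both cell types (y axis, -/- minus +/+) of the genes tested on chromosome 23 against the distance of their start from that of tcf21 (x axis, Mb); coloured points had an unadjusted P under 0.05 and the diamond is the called gene. The coloured points lie on both sides of 0 along the whole chromosome, with 12 of the 45 genes within 1 Mb among them.

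Across all genes, the 2 cell types resembled each other weakly. The log2FC values of EpiCs and CMs had a Pearson correlation of 0.171 and a Spearman correlation of 0.249 across the 16077 genes, which are not independent replicates. The 2 differences share no library. They are not thereby independent, since EpiC and CM libraries of a genotype may share hearts or sorting sessions, which the sources do not state. The sign was the same for 9825 genes (61.1%). The genotypes were apart in the same direction in both cell types for 2087 genes (1091 higher, 6.79%, and 996 lower, 6.2%), and apart in opposite directions for 775 (4.82%). An unadjusted *P* under 0.05 over both cell types was found for 2397 genes, 1333 with higher and 1064 with lower values in *tcf21-/-*. In limma no gene had a called difference between the 2 genotype effects, with 1137 genes (7.07%) at an unadjusted *P* under 0.05. The median SE of the log2FC was 0.272, and the smallest called log2FC, that of *per2*, had an SE of 0.11.

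**Figure D4:**
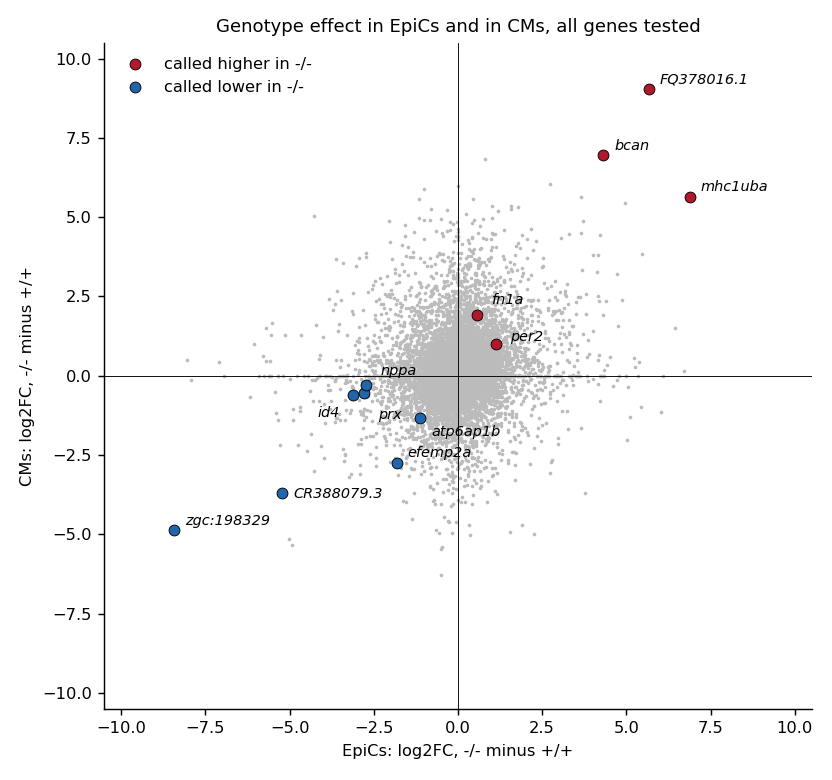
Log2FC in CMs (y axis) against log2FC in EpiCs (x axis), both -/- minus +/+, for the 16077 genes tested (grey) and the 12 called genes (coloured and named). The called genes lie in the upper right and lower left of the plot, with nppa, id4 and prx close to the horizontal line at 0 and fn1a nearer to the vertical one.

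Markers of leukocytes had higher summed values in mutant libraries. Leukocytes, mainly macrophages at this stage, reside in and on the larval heart. The summed normalized counts of 11 markers were 34 and 33 in wild-type against 129 and 57 in mutant EpiCs, and 695 and 738 in wild-type against 2415 and 3352 in mutant CMs. The sums were apart between the genotypes in both cell types, and the CM libraries held far more of these transcripts than the EpiC libraries. The median log2FC was 0.247 in EpiCs and 2.33 in CMs, and only 2 of the 11 markers, *marco* and *lcp1*, were higher in both mutant than in both wild-type EpiC libraries, beside 21.6% of the genes tested. All 10 markers that were tested had a log2FC above 0, none was called and 5 (50%) had an unadjusted *P* under 0.05, beside 8.29% of all genes in this direction. The limit on the mean ran over all libraries, and *ptprc* passed it only through the mutant CM libraries. These counts are therefore partly set by the filter. The median was 1.69, or 1.45 with the 4 genes that had a group at 0 set to their bound.

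The macrophage receptor gene *marco* had 0 and 0 against 47 and 6 in EpiCs and 107 and 71 against 418 and 482 in CMs (log2FC 3.27, SE 0.63, *P*adj = 0.111). *lcp1*, which encodes the leukocyte actin-bundling protein L-plastin, had 1 and 0 against 7 and 31 in EpiCs and 77 and 213 against 556 and 742 in CMs (log2FC 2.91, SE 0.60, *P*adj = 0.124). Both were apart between the genotypes in each cell type. *ptprc*, the pan-leukocyte gene for CD45, was at 0 in all EpiC libraries and had 17 and 0 in wild-type against 75 and 128 in mutant CMs. In CMs, 9 of the 11 markers were higher in both mutant libraries than in both wild-type ones, beside 20.6% of the genes tested. The part of leukocyte RNA in the values of the called genes, such as those of *fn1a* and *bcan* in CMs, was not tested.

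Markers of other cell types were read in the same way. The 7 smooth muscle and outflow tract markers all had a log2FC below 0 over both cell types, with a median of −0.277 (0.238 in EpiCs and −0.716 in CMs) and no call. Their sums were apart in opposite directions, at 19415 and 18985 in wild-type against 21173 and 23804 in mutant EpiCs, and 4681 and 3714 against 2857 and 2566 in CMs. Of 10 endothelial and endocardial markers tested, 7 had a log2FC above 0, with a median of 0.712 and no call, and their sums overlapped between the genotypes in both cell types. Of the 11 in the table, 4 were higher and 2 lower in both mutant than in both wild-type EpiC libraries, beside 21.6% and 21.5% of the genes tested. In CMs 3 were higher and 0 lower, beside 20.6% and 19.3%. *pecam1*, an endothelial adhesion gene, had 0 and 0 against 56 and 11 in EpiCs and 0 and 2 against 50 and 4 in CMs (log2FC 3.96, SE 0.92, *P*adj = 0.157). It passed the limit on the mean only through the mutant libraries, mostly replicate 1 of each cell type. Of 8 erythroid markers tested 6 were above 0, but their sums ranged from 46 to 678 in *tcf21-/-* EpiCs alone and overlapped between the genotypes. Of 13 epicardial markers tested none was called, and their median was −0.07. Of 11 skeletal muscle markers in the table, 6 were higher and 1 lower in both mutant than in both wild-type EpiC libraries. In CMs 1 was higher and 3 were lower, beside the shares over all genes given above. The 9 tested had a median log2FC of 1.06 in EpiCs and −0.313 in CMs, with no call. The sums of 7 epithelial and skin markers were apart in opposite directions. They were 2130 and 2558 against 1430 and 1893 in EpiCs and 341 and 354 against 687 and 628 in CMs.

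Genes for growth factors of the heart were followed as a further list, of which 33 were tested and none called. An unadjusted *P* under 0.05 was found for 3 with higher and 5 with lower values (24.2% together). Of all genes, 8.29% had such a *P* with higher and 6.62% with lower values. *tgfb2*, a TGF-beta ligand gene, had 428 and 360 against 785 and 851 in EpiCs and 112 and 264 against 454 and 433 in CMs (log2FC 1.21, SE 0.26, *P*adj = 0.137). *igf2b*, an insulin-like growth factor gene, had 4158 and 4228 against 4591 and 4406 in EpiCs and 132 and 192 against 408 and 488 in CMs (log2FC 0.79, SE 0.15, *P*adj = 0.104). *cxcl14*, a chemokine gene, had 1709 and 1885 against 774 and 380 in EpiCs and 135 and 79 against 76 and 31 in CMs (log2FC −1.40, SE 0.36, *P*adj = 0.195). These 3 genes were apart in the same direction in both cell types, as were 4 of the 33 tested in all (12.1%, beside 13% of all genes).

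The mitochondrial ribosomal protein genes, which the study named from these libraries as lower in *tcf21-/-* CMs, had medians below 0 in both cell types. Mitochondrial ribosomes translate the few proteins encoded in the mitochondrial genome, which are subunits of the respiratory chain. Of 74 such genes tested 73 had a log2FC below 0, none was called, and 24 (32.4%) had an unadjusted *P* under 0.05 with lower values in *tcf21-/-*, beside 6.62% of all genes. Their median was −0.378, with −0.227 in EpiCs and −0.537 in CMs. Between replicates the median level of the list had an SD of 0.255, larger than the difference in EpiCs. Since the list was chosen on these samples, it is no independent evidence of its direction.

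*mrps23*, a small subunit gene, had 365 and 420 against 307 and 235 in EpiCs and 1464 and 914 against 648 and 499 in CMs (log2FC −0.78, SE 0.20, *P*adj = 0.2). *mrps33* had 317 and 414 against 243 and 179 in EpiCs and 1329 and 892 against 721 and 657 in CMs (log2FC −0.73, SE 0.20, *P*adj = 0.211). Both were apart in each cell type, as were 20 of the 74 (27%), beside 6.2% of all genes in this direction. *mrps30* was the 1 gene with a log2FC above 0 (0.07, SE 0.13, *P*adj = 0.803). In these examples *tcf21+/+* CM replicate 1 had the highest value of all libraries. Without it the median of the 74 genes was −0.22, and without *tcf21+/+* CM replicate 2 it was −0.541.

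The medians of 3 other lists were also below 0, by less. The median log2FC was −0.215 over 92 cytosolic ribosomal protein genes (84 below 0), −0.255 over 107 genes of the respiratory chain and ATP synthase (103 below 0) and −0.188 over 39 proteasome genes (36 below 0). None of these genes was called. Without *tcf21+/+* CM replicate 1 the median was −0.0807 for the cytosolic ribosomal proteins and −0.118 for the respiratory chain. The medians of the ribosomal and respiratory chain lists stayed below 0 in all alternatives run.

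The genotype effect also varied with the genomic span of the genes. In 4 groups of equal size made by span, the median log2FC over both cell types was −0.193 for genes of up to 8.23 kb, −0.064 for those up to 17.7 kb, 0.078 for those up to 40.6 kb and 0.177 for longer genes. The order was the same in EpiCs (−0.118 to 0.109) and in CMs (−0.26 to 0.232), and across genes the Spearman correlation with span was 0.259. The median span was 6.37 kb for the mitochondrial ribosomal protein genes, 5.9 kb for the cytosolic ones, 5.6 kb for the respiratory chain, 10.9 kb for the proteasome genes, 21.9 kb for the clock genes and 71.6 kb for the collagens. The part of gene span in the values of these lists was not tested. The 12 called genes were spread over these groups, with 2, 2, 6 and 2 from the shortest to the longest.

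**Figure D5:**
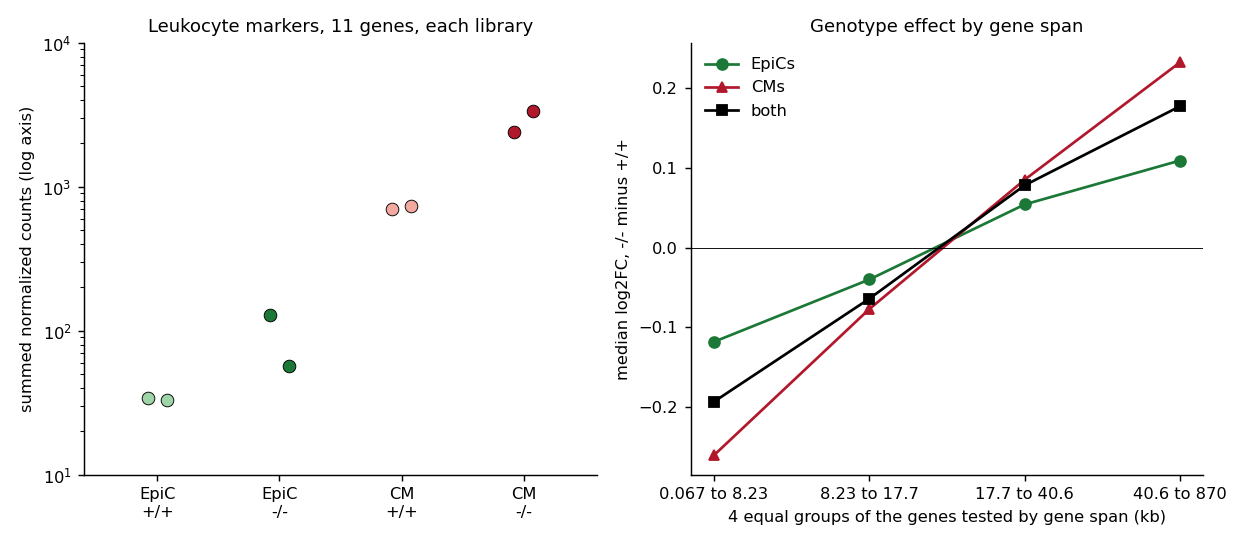
Left, summed normalized counts of 11 leukocyte markers (y axis, log scale) in each library of the 4 groups; right, median log2FC (y axis, -/- minus +/+) in 4 groups of the genes tested made by genomic span (x axis, kb) in EpiCs, in CMs and over both. The -/- points lie above the +/+ points in both cell types, and the medians over both cell types go from −0.193 in the group of the shortest to 0.177 in that of the longest genes.

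Responses to handling and stress were also compared. Of 25 dissociation and immediate early genes tested 19 had a log2FC below 0 (median −0.167), and of 25 heat shock and unfolded protein response genes 21 did (median −0.132). Their median spans were short, at 3.86 and 7.2 kb, and all tested genes of up to 8.23 kb had a median of −0.193. The part of gene span in the values of these 2 lists was not tested. Of 11 glucocorticoid response genes 8 were above 0 (median 0.264, with 0.022 in EpiCs and 0.358 in CMs). Of the 11, 4 (36.4%) had higher values at an unadjusted *P* under 0.05, beside 8.29% of all genes in this direction. The interferon response genes were split, with 5 of 10 above 0. No gene of these lists was called.

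The limit on the mean normalized count left out 5209 genes. Just inside it, *apoa1a* had a mean of 10, with 3 to 18 in the libraries, and just outside it *gprc6a* had a mean of 9.875, with 0 to 28.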

How the data were processed

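Libraries had been made with the SMART-Seq v4 kit, which does not mark strand, and sequenced as single-end reads. Per the labels and methods, the authors trimmed reads with Trimmomatic 0.39, aligned them with STAR 2.7.3a to danRer11 (Ensembl annotation) and counted them on exons with featureCounts 1.6.5, without reads that matched several genes. The deposited signal values are such counts after division by a library's own factor and rounding, as the values show. Whole reads could not be recovered, because 1 read was worth less than 1 unit in most libraries, so no count test was run. Estimated reads came from the spacing of low values, and limit the precision of low genes.

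Values were tested as log2(value + 1) with limma 3.58.1 in R 4.3.3 (4 group means, eBayes with an abundance trend, two-sided, Benjamini-Hochberg over the 16077 genes with a mean of at least 10). The log2 scale with a constant of 1 understates the change of low genes. *P* values measure the spread between 2 pools of hearts per group, with all 8 libraries sharing 1 estimate of the spread. The fit counts EpiC and CM libraries of a genotype as separate pools, although both cell types may have come from the same hearts. Folds against a group at 0 took 3 reads per library as the floor. The fit and the scan for the spacing were tested on simulated data. Lists are described by counts and medians, with no set test.

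All called genes are named, as fewer passed than the naming rule allowed (14 in each direction, with a mean over 50, genotypes apart, and *tcf21*, called list members and called genes within 10 Mb of *tcf21*). Genes named beside them were chosen after their values were seen. Members and lists were chosen with earlier results of these data known. Alternatives were other pseudocounts, filters, scalings, models and fold change limits, and leaving out each library. A planned description of promoter motifs was not run, since promoter sequences were not used here. Python 3.11.15, pandas 2.3.3, numpy 2.4.6 and matplotlib 3.10.9 prepared the figures.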

Additional observations from a re-analysis of the deposited data

How the results depend on the processing

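No log2FC of a called gene, of *tcf21* or of *cry1a* changed sign in any alternative. For the called genes this was largely fixed by their choice on the same values. The medians of the clock, leukocyte, ribosomal and respiratory chain lists kept their sign too, and no other list was rerun. The median over all genes tested lay between −0.0246 and 0.0085. The counts of called genes (5 higher and 7 lower, with 0 differences between cell types) moved. Higher and lower genes came to 24 and 22 with a pseudocount of 5, 5 and 5 with 0.5, 18 and 15 at a mean of at least 50 (which leaves out *CR388079.3*) and 4 and 3 without a filter. They came to 4 and 2 at the same total in every library, 12 and 15 with cyclic loess, and 16 and 21 with quantile normalization, which also gave 9 differences between cell types. The additive model, which counts the difference between cell types as spread, gave 3 and 2. It kept the calls of *FQ378016.1*, *mhc1uba*, *per2*, *efemp2a* and *atp6ap1b*, while *id4*, *prx*, *nppa* and *fn1a* were among those lost. Library quality weights gave 4 and 3, and a fit without the abundance trend 42 and 30, with 58 differences. The cause of these shifts was not tested. Other fold change limits and the upper quartile left both counts as they were. With the upper quartile, however, *bcan* lost its call and *cry1a* gained one, so that 11 of the 12 genes stayed called.

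With the replicate number as a block, 4 genes were higher and 4 lower, and *atp6ap1b*, *prx*, *CR388079.3* and *bcan* lost their call. Libraries with the same number deviated from the mean of their group with correlations between −0.081 and 0.067, and the block was not taken as a pairing. Whether libraries with the same number share hearts is not stated in the sources used here.

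Leaving out 1 library gave 0 to 773 higher genes, 0 to 287 lower genes and 0 to 119 differences between cell types, the last with 6 without *tcf21+/+* CM replicate 1 and 119 without replicate 2. These fits assume that the lone library of a group varies like the others. Of the 12 called genes, 12 stayed called without *tcf21+/+* CM replicate 2, 7 without its replicate 1, 4 and 3 without a *tcf21-/-* CM library, 1 without either *tcf21+/+* EpiC library and 0 without either *tcf21-/-* EpiC library. *mhc1uba* was called in 17 of 22 alternatives, *efemp2a* in 16, *per2*, *id4* and *atp6ap1b* in 15 and *fn1a* in 14. *zgc:198329* was called in 11, *prx* in 10, *nppa* in 9, *CR388079.3* in 9 of 21 and *cry1a* in 7.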
